A study of Rattus norvegicus with 2 samples.

Results

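The Fos, Jun and Egr genes encode transcription factors that many cells induce within minutes of a stimulus, without new protein synthesis, and are therefore called immediate early genes. Members were the rows of the expression table whose symbol is Fos, Fosb, Fosl1, Fosl2, Jun, Junb, Jund, Egr1, Egr2 or Egr3, and all 10 were present among the 17455 genes of the table. The RNA was from oligodendrocyte precursor cells (OPCs) of the rat, which divide in the brain and spinal cord and mature into myelinating oligodendrocytes. Cells of wild type genotype were transfected with a Lonza kit, either with vector (the library labelled control) or with Slit1, which encodes a secreted ligand of the Robo receptors. There was 1 library per group, with 18817462 estimated counts in vector and 18998770 in Slit1. The age of the animals, the time from transfection to harvest, the promoter of the construct and the share of cells that took it up are not stated in the labels, so transfected and untransfected cells may be mixed.

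Fos proteins (Fos, Fosb, Fosl1 and Fosl2) bind DNA only as dimers, mainly with a Jun protein (Jun, Junb or Jund), and these dimers form the factor AP-1; Jun proteins can also pair with each other. Egr proteins bind DNA as single molecules through zinc fingers. Transcription of many of these genes is switched on by serum response factor (SRF), which works with ternary complex factors of the Elk family that the ERK kinases phosphorylate, and by CREB, the factor that answers to cyclic AMP and calcium. In the myelinating glia of peripheral nerve, Egr2 (Krox20) is the factor required for myelination, a role that it does not have in oligodendrocytes.

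With 1 library per group no difference below has a replicate check, and no p-value was computed. Intervals are exact 95% intervals for counting error alone, and how much cultures vary is unknown. In RNA from a whole culture, fewer cells of a type and less RNA per cell cannot be told apart. The construct was detected: TPM, the unit of level used here, counts transcripts per 1000000 with length taken into account, and Slit1 stood at 1.70 TPM in vector against 229.7 TPM in the Slit1 library. The lineage markers Pdgfra, Cspg4, Olig1, Olig2 and Sox10 were all present, between 10.07 and 730.1 TPM. Sox10 was 3.05-fold higher in Slit1 (71.4 and 218 TPM, interval 2.90 to 3.22), and the other 4 lay between the limits of 1.5-fold used below. Astrocyte markers were abundant in both libraries: Gfap stood at 4694 TPM in vector against 6130 TPM in Slit1, Slc1a3 1610 and 1417 TPM, Gja1 506.2 and 295.7 TPM, Aqp4 389.1 and 462.5 TPM, and Aldh1l1 52.5 and 54.1 TPM. The 5 astrocyte markers summed to 7252 TPM in vector and 8359 TPM in Slit1, against 1023 and 1134 TPM for the 5 lineage markers. Among markers of other cells, the 4 listed microglial genes found in the table summed to 0.67 and 0.74 TPM and the 4 endothelial genes to 0.52 and 0.58 TPM, whereas neuronal genes reached 19.5 and 16.5 TPM and fibroblast and mural genes 11.1 and 12.2 TPM. Those of Schwann cells summed to 59.9 and 37.9 TPM, nearly all of it Pmp2 (56.9 and 35.0 TPM), while Foxd3 had 1 count and 0. Whether astrocytes or precursor cells made these astrocyte transcripts cannot be read from the table, and the part of the astrocyte markers and of Sox10 in the differences below was not tested.

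Egr1 and Egr2 were lower in the Slit1 library, while Egr3 and the tested Fos and Jun genes differed by less than 1.5-fold, some in each direction. A gene was called higher or lower when log2(TPM + 1) differed by at least 1.5-fold, among the 13175 genes that averaged 1 TPM or more over both libraries. Of the 10 members 9 reached that level, and Fosb did not. Of these 9, Egr2 and Egr1 were lower, none was higher, and 7 lay between the limits. Across all genes tested, 4.83% were lower and 3.72% were higher by the same rule, so 2 of 9 lay above the background share, on a count too small to carry more than that. At a limit of 2-fold, which 0.645% of all genes passed downwards, Egr2 was the member that remained. The median difference of the 9 members was -0.35 on the log2 scale, beside -0.05 over all genes, and 7 of 9 members were below 0, as were 56.0% of all genes tested.

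**Figure D1:**
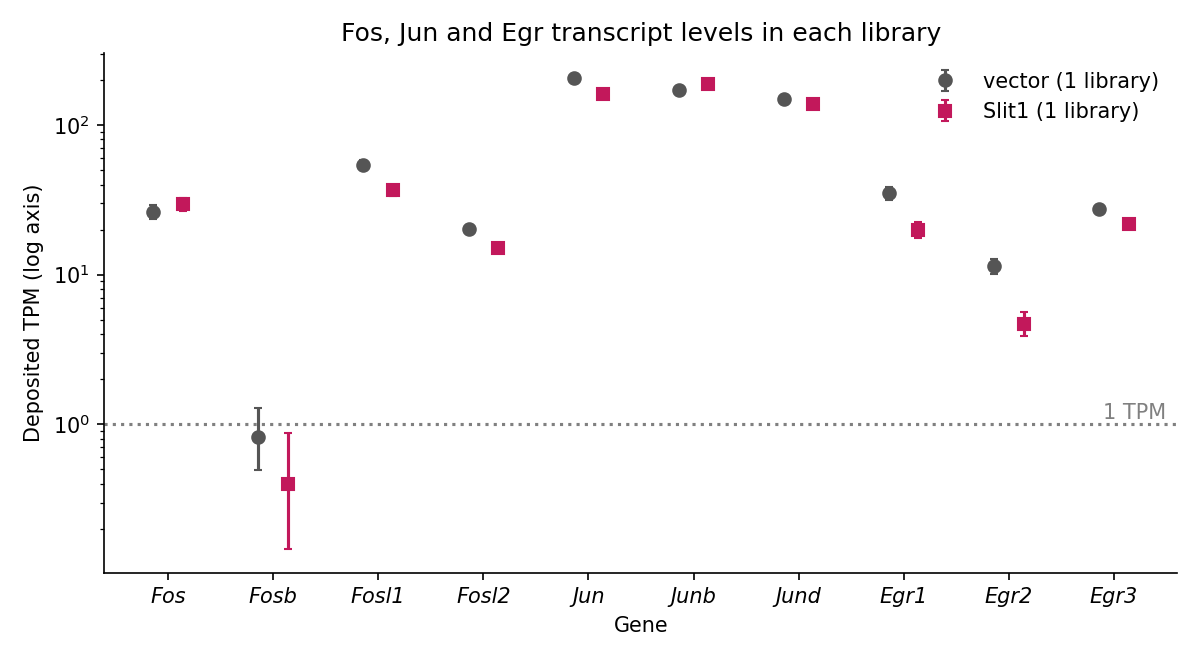
Level of each of the 10 members in the vector library (grey circles) and the Slit1 library (red squares), as deposited TPM on a log axis, with exact 95% counting intervals as bars. The 3 Jun genes lie highest, between 137.2 and 204.9 TPM, and Fosb lies under 1 TPM in both libraries.

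The promoters of Egr1 and Egr2 are shown because these are the members that passed the limit. RefSeq windows were found for 7 members by gene number, and those of Fos, Jun and Egr3 were not analysed here. Each sequence is the 250 bases before the annotated start on build GRCr8, 5′ to 3′ on the strand of the gene. Capitals mark a CArG box, the sequence that SRF binds, the core TGACG of the cyclic AMP response element (CRE, which reads CGTCA on the other strand), or the Egr motif GCGNGGGCG. Jund is shown beside them as the member of the AP-1 group with the most matches and a small difference between the libraries. Egr1 lies at chr18:26736828-26737077 (plus strand), Egr2 at chr20:21054442-21054691 (minus strand) and Jund at chr16:18769772-18770021 (minus strand).
Egr1: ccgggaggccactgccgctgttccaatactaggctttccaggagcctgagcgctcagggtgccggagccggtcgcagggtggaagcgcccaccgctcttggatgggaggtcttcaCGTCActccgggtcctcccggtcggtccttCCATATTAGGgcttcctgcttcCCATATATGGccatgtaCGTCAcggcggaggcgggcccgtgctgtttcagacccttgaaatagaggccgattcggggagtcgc
Egr2: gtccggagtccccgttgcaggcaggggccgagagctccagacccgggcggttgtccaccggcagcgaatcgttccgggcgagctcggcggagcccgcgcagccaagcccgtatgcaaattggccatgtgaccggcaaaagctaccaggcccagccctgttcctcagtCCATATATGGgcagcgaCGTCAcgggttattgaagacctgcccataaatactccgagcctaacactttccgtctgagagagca
Jund: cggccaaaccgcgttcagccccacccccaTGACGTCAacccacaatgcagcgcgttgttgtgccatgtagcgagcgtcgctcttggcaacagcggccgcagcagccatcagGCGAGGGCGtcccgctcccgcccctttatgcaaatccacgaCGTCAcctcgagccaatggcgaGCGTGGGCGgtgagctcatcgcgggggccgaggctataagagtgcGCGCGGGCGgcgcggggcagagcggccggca

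In both Egr promoters the CArG box CCATATATGG stands 83 to 74 bases before the start and is followed, after 7 bases, by the CRE core at 66 to 62 bases. Egr1 holds another CArG box, CCATATTAGG, at 105 to 96 bases and another CRE core at 135 to 131 bases. Of the 7 windows, those of Egr1 and Egr2 were the 2 with a CArG box, a match that 1.5% of all 33469 windows of this length hold on either strand. Fos, Jun and Egr3, which lay between the limits, had no window to search, and sites further upstream were not searched. Whether a CArG box sets Egr1 and Egr2 apart from the other members therefore cannot be read from these windows. The arrangement of CCATATATGG, a gap of 7 bases and CGTCA, chosen after it was seen in these genes, occurred in 2 of the 33469 windows, those of Egr1 and Egr2. The CRE core occurred in 5 of the 7 windows (Fosl1, Junb, Jund, Egr1 and Egr2) and in 18.2% of all windows. The full CRE, TGACGTCA, which contains the core, occurred in Jund alone of the 7 and in 1.59% of all windows. The Egr motif occurred in Jund and Fosl2 and in 4.29% of all windows, and the AP-1 motif TGANTCA in none of the 7 and in 6.34% of all. The start used lies inside the gene as RefSeq spans it, by 760 bases for Egr2 and by 322 bases for Fosb, so both windows lie within the gene. A more upstream start of either gene has another promoter that was not analysed, and a missing match in the Fosb window does not describe that promoter. These matches describe letters in a window and not binding.

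Genes with a CArG box in the window were called at shares close to those of all genes with a window. Of the 131 tested genes with a CArG box in the window, Egr1 and Egr2 among them, 8 were lower (6.11%) and 4 higher (3.05%), and their median difference was 0.01. Without Egr1 and Egr2, 6 of the other 129 were lower. Of all 10745 tested genes that have a window, 4.47% were lower and 3.46% higher, and the median was -0.04. In the 40 tested genes with both a CArG box and a CRE core, 2 were lower and 1 higher, and the median was 0.03. The lower ones were Egr1 and Egr2, the genes that prompted the search. Of the other 38, 0 were lower, a set too small to read against a share of 4.47%.

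Egr2 had the largest difference of the 10 members. It measured 11.4 TPM (289.9 estimated counts) in vector and 4.69 TPM (123 counts) in Slit1, a level 2.43-fold lower (interval 1.96 to 3.02). Ordered by difference, 57 of the 13175 genes tested lay below it, which is 0.433% of them. On the log2 scale the difference was -1.12 in TPM and between -1.13 and -0.95 under 4 other scalings.

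Egr1, a member often used as a mark of recent stimulation, measured 34.9 TPM (445.4 counts) in vector and 19.9 TPM (264.8 counts) in Slit1. It was 1.75-fold lower (interval 1.5 to 2.05), and 1.75% of all genes tested lay below its difference of -0.78. Like Egr2, it was at least 1.5-fold lower in each of 5 scalings. Egr3, a close relative with nearly the same zinc fingers, measured 27.6 TPM (1011 counts) and 21.6 TPM (799.5 counts), 1.28-fold lower (interval 1.16 to 1.403). Its interval for the ratio, 0.713 to 0.860, did not overlap those of Egr1 (0.489 to 0.666) and Egr2 (0.331 to 0.511), so by counting error Egr3 differed less between the libraries than the other Egr genes. Of the 5 astrocyte markers, Gja1 was 1.71-fold lower in Slit1 and the other 4 lay between the limits, on both sides of no difference. Gfap (1.31-fold), Aqp4 (1.19-fold) and Aldh1l1 (1.03-fold, interval 0.959 to 1.11) were higher and Slc1a3 (1.14-fold) was lower.

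The summed level of the Egr genes was 73.9 TPM in vector and 46.2 TPM in Slit1. Egr1 held 47.2% of that sum in vector (counting interval 44.5 to 49.9) and 43.1% in Slit1 (39.7 to 46.4). The share of Egr2 was 15.4% in vector (13.7 to 17.1) and 10.1% in Slit1 (8.42 to 11.9), while that of Egr3 was 37.4% (35.1 to 39.7) and 46.8% (43.7 to 49.9). Egr1 was therefore the most abundant Egr transcript in vector, whereas in Slit1 the levels of Egr3 and Egr1 had overlapping intervals (20.2 to 23.2 and 17.6 to 22.5 TPM).

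**Figure D2:**
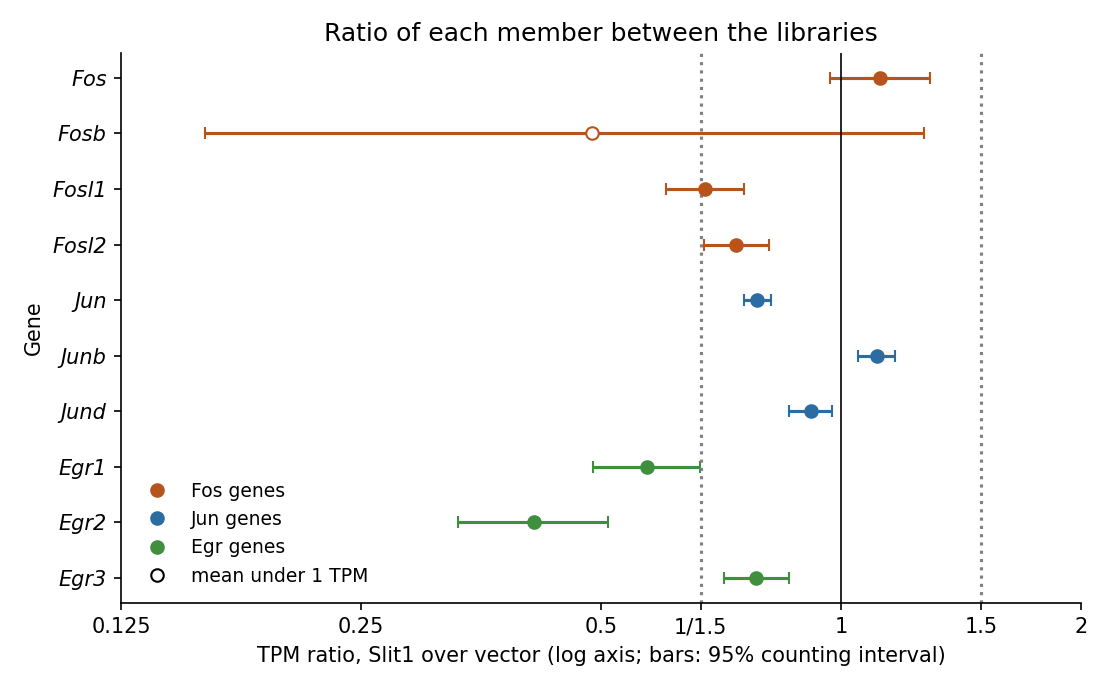
TPM ratio of Slit1 over vector for each of the 10 members on a log axis, with exact 95% counting intervals as bars and dotted lines at 1.5-fold in each direction. Egr2 lies beyond the lower line with its whole interval, and Egr1 does so narrowly. Fosl1 lies at the line, Fos and Junb lie above 1, and the open circle of Fosb, from 18.98 and 6 counts, has an interval that reaches from 0.159 to 1.27.

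Among the Fos genes, Fosl1 and Fosl2 were lower in Slit1 by less than the limit and Fos was not. Fosl1 encodes Fra-1, a Fos protein without the strong activation domain of Fos that accumulates during lasting ERK activity in many cells. It measured 54.1 TPM (755 counts) in vector and 36.5 TPM (530 counts) in Slit1, 1.48-fold lower (interval 1.32 to 1.66), and was the member nearest to the limit without passing it, with 5.50% of all genes below it. Fosl2, which encodes the related Fra-2, measured 20.3 TPM (1060 counts) and 15.0 TPM (776.3 counts), 1.35-fold lower (interval 1.23 to 1.49).

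Fos itself, the most rapidly and briefly induced of the group, measured 26.4 TPM (351.3 counts) in vector and 29.5 TPM (409.3 counts) in Slit1. Its ratio of 1.12 had an interval that included 1 (0.969 to 1.30), so no difference was detectable beyond counting error. The interval of Fos did not overlap that of Fosl1 (0.602 to 0.755) or Fosl2 (0.673 to 0.811). Fosb, best known in neurons exposed to repeated stimulation, was close to the limit of detection, with 0.82 TPM (18.98 counts) in vector and 0.40 TPM (6 counts) in Slit1. Its ratio of 0.488 had an interval from 0.159 to 1.27, so in TPM a difference was not detectable beyond counting error. In CPM (counts per 1000000 with no term for length) the ratio was 0.313 with an interval from 0.102 to 0.815, which lies below 1, so the outcome for Fosb depends on the unit. In RefSeq a long noncoding RNA gene overlaps Fosb and no other gene overlaps any of the other 9 members; no source used here says whether strand was used in counting.

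The Fos genes summed to 101.6 TPM in vector and 81.4 TPM in Slit1. Fosl1 held the largest share in both libraries, 53.3% in vector (50.9 to 55.6) and 44.8% in Slit1 (42.1 to 47.5). Fos took 26.0% (23.7 to 28.2) and 36.3% (33.6 to 39.0), and Fosl2 20.0% (18.6 to 21.3) and 18.4% (17.0 to 19.8). Fos thus made up more of the Fos transcripts in the Slit1 library, with intervals for its share that did not overlap.

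The Jun genes were the most abundant members and lay on both sides of no difference. Jun, the main partner of Fos proteins, measured 204.9 TPM (5395 counts) in vector and 161.0 TPM (4412 counts) in Slit1, 1.27-fold lower (interval 1.22 to 1.32). Junb, which activates AP-1 sites more weakly than Jun and opposes it at some genes, measured 170.7 TPM (2562 counts) and 189.2 TPM (2956 counts), 1.11-fold higher (interval 1.05 to 1.17). Jund, which is expressed at a steady level in many resting cells, measured 149.8 TPM (2111 counts) and 137.2 TPM (2013 counts), 1.09-fold lower (interval 1.03 to 1.16). In CPM the interval of the Jund ratio, 0.888 to 1.004, included 1. None came near the limit of 1.5-fold, and the 3 intervals for the ratio did not overlap one another.

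The order of Jun and Junb was reversed between the libraries. In vector the levels ran Jun, Junb, Jund, Fosl1, Egr1, Egr3, Fos, Fosl2, Egr2 and Fosb. In Slit1 they ran Junb, Jun, Jund, Fosl1, Fos, Egr3, Egr1, Fosl2, Egr2 and Fosb. Neighbours had separate counting intervals except Egr3 and Fos in vector (25.9 to 29.4 and 23.7 to 29.3 TPM) and Egr3 and Egr1 in Slit1. Jun held 39.0% of the summed Jun transcripts in vector and 33.0% in Slit1, and Junb 32.5% and 38.8%. The share of Jund was 28.5% and 28.2%, with overlapping intervals (27.5 to 29.5 and 27.1 to 29.2).

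**Figure D3:**
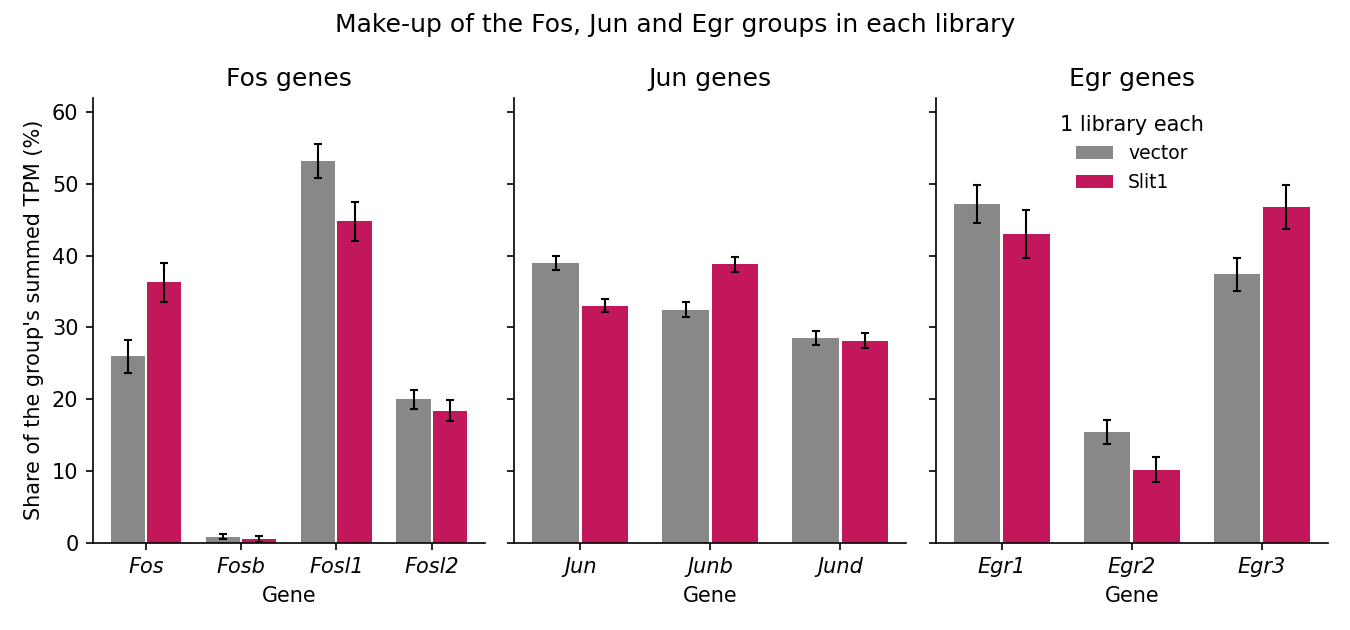
Share of each gene in the summed TPM of the Fos, Jun and Egr groups, in the vector library (grey) and the Slit1 library (red), with 95% counting intervals as bars. Junb passes Jun in Slit1, the share of Fos is 26.0% in vector and 36.3% in Slit1, and Egr3 is the tallest Egr bar in Slit1 at 46.8%.

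Across all 10 members, Jun genes supplied 75.0% of the summed TPM in vector (74.2 to 75.7) and 79.2% in Slit1 (78.5 to 80.0). Fos genes supplied 14.5% (13.9 to 15.1) and 13.2% (12.6 to 13.9), and Egr genes 10.5% (10.01 to 11.1) and 7.52% (7.05 to 7.98). The transcripts of the obligate partners, the Fos genes, were therefore several times scarcer than those of the Jun genes in both libraries.

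The directions of the members did not depend on the scaling. Fos and Junb were above 0 and the other 7 below 0 in TPM, in FPKM (the authors' value per length and sequencing depth, without a common total), in CPM, with the median gene set to 0 and with edgeR TMM factors. Over all genes the same choice moved the balance: 637 were lower and 490 higher in TPM, so that 43.5% of called genes were higher, against 54.2% in FPKM, 52.3% in CPM, 54.3% with the median gene set to 0 and 53.6% with edgeR TMM factors. Under these 4 scalings the share of all genes called lower was between 2.79% and 3.72%. FPKM and the median setting differ from TPM, and TMM from CPM, mainly by a factor per library, so the scalings are not independent checks.

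**Figure D4:**
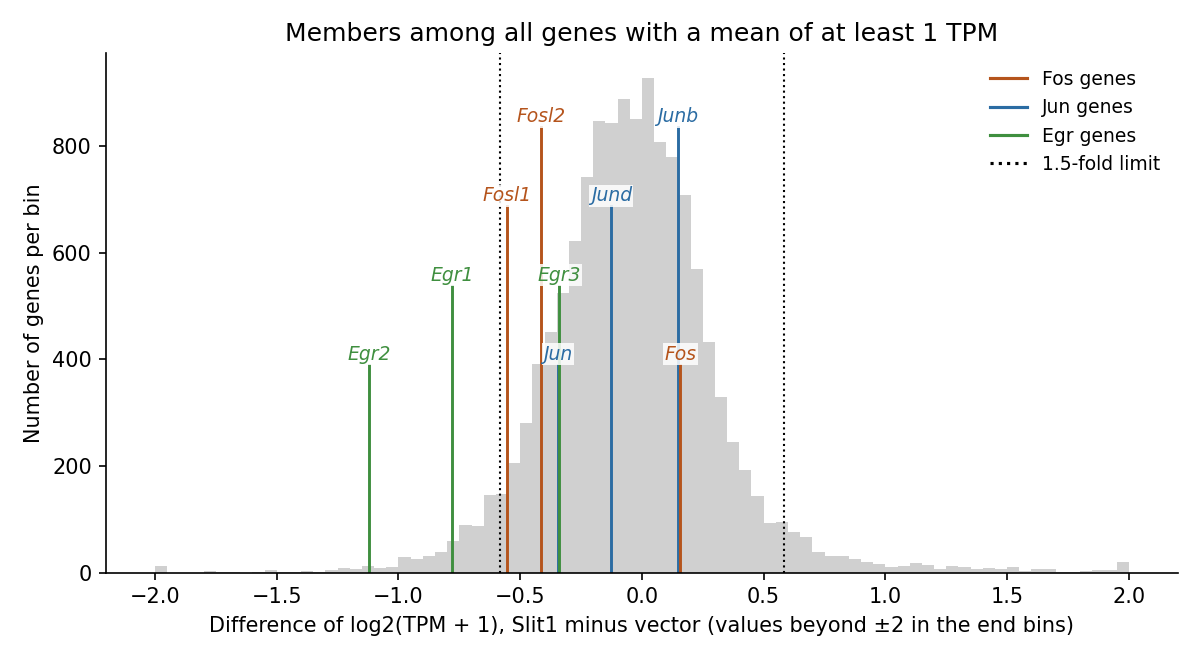
Number of genes by log2(TPM + 1) in Slit1 minus that in vector, for the 13175 genes tested (grey bars), with the 9 tested members as coloured lines and the 1.5-fold limits dotted; label heights carry no meaning. Egr2 at -1.12 and Egr1 at -0.78 lie outside the lower limit, Fosl1 at -0.56 just inside it, and Fos and Junb at 0.16 and 0.15 on the other side of 0.

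Genes that work with the members were followed through 6 lists, which held 155 distinct tested genes. Of these, 17 were lower (11.0%) and 6 higher (3.87%), beside 4.83% and 3.72% of all genes. The lists were chosen with earlier results of these data known, so no share given for a list here or below is independent evidence. Of the bZIP genes whose proteins can pair with or compete with AP-1, 26 were tested, 0 passed the limit in either direction, and the median was -0.20. The members of that list that differed most were Creb5 (10.3 and 6.73 TPM) and Maf (12.5 and 8.39 TPM). Atf3, itself an immediate early gene that pairs with Jun, measured 15.8 and 15.7 TPM.

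Of 9 tested regulators around SRF, 1 was lower (11.1%) and 0 were higher, beside 4.83% and 3.72% of all genes. The list's median was -0.34, which became -0.15 in CPM and -0.14 with TMM factors. The lower gene was Mrtfb, an SRF coactivator that responds to actin (15.9 and 9.59 TPM, 1.66-fold, interval 1.44 to 1.91); it missed the limit in FPKM. Srf itself measured 17.9 and 19.2 TPM, a ratio whose interval included 1. The ternary complex factors were below 0 by less than the limit: Elk1 measured 47.7 and 37.5 TPM, Elk4 36.6 and 26.2 TPM and Elk3 38.3 and 34.1 TPM.

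Of 39 genes of the Ras, MAP kinase and CREB pathways, 2 were lower (5.13%) and 3 higher (7.69%), beside 4.83% and 3.72% of all genes. The list's median of -0.04 was above 0 under the other 4 scalings. Mapk10, which encodes the kinase JNK3, was 1.64-fold lower but did not pass in CPM or with TMM factors. The higher genes were Rras2, a Ras-related GTPase (14.9 and 30.5 TPM, 2.04-fold), Rps6ka5, which encodes the kinase MSK1 that phosphorylates CREB and histone H3 at immediate early genes (8.69 and 16.5 TPM, 1.89-fold), and Rps6ka2, a ribosomal S6 kinase gene (1.55-fold). Mapk3, which encodes the kinase ERK1, measured 238.2 and 289.1 TPM, within the limits.

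Of 49 other immediate early genes, 6 were lower (12.2%) and 1 was higher (2.04%), beside 4.83% and 3.72% of all genes. They had a median of -0.27, beside -0.05 over all genes. Cited2, a regulator that binds the coactivator CBP (111.8 and 64.1 TPM, 1.74-fold), Tob1, an antiproliferative factor (1.71-fold), Bhlhe40, a transcriptional repressor (1.71-fold), Dusp6, the phosphatase that inactivates ERK (1.70-fold), and the zinc finger factor gene Klf4 (1.58-fold) were lower. Under the other 4 scalings Klf4 did not pass the limit. The list then had 4 lower genes in FPKM and with the median gene set to 0, and 5 in CPM and with TMM factors. Of all genes, between 2.79% and 3.72% were lower under these 4 scalings. The sixth lower gene in TPM, Nr4a3, named after its value was seen, had 59.2 and 28 counts. Sgk1, a kinase induced by serum and glucocorticoids, was higher (36.8 and 77.2 TPM, 2.10-fold, interval 1.93 to 2.29). In all, 36 of the 49 were below 0 (73.5%), as were 56.0% of all genes tested.

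**Figure D5:**
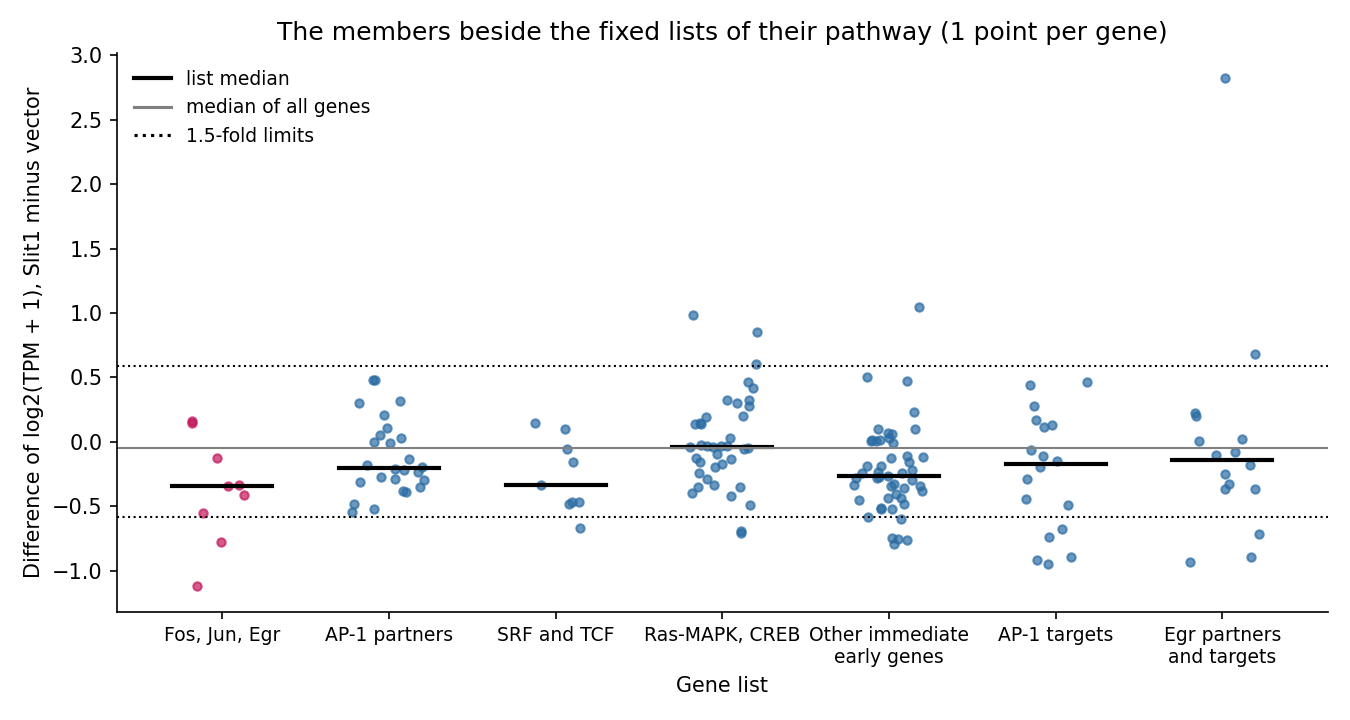
Difference of log2(TPM + 1), Slit1 minus vector, of the 9 tested members (red) and of the genes of 6 pathway lists (blue), 1 point per gene, with list medians as black bars, the median of all genes as a grey line and the 1.5-fold limits dotted. In TPM the median is -0.35 for the members, -0.34 for the SRF list (-0.15 in CPM and -0.14 with TMM factors) and -0.04 for the kinase list, near that of all genes; the highest point is Mag in the Egr list.

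Of 18 tested genes known as AP-1 targets in other cells, 5 were lower (27.8%) and 0 higher, beside 4.83% and 3.72% of all genes. The median was -0.17, beside -0.05 over all genes. Ccnd1, which encodes cyclin D1, measured 521.6 and 280.7 TPM (1.86-fold lower), Hmox1 (heme oxygenase) 209.5 and 110.1 TPM (1.90-fold), Spp1 (osteopontin) 95.1 and 56.5 TPM (1.68-fold) and the protease gene Plau 12 and 7.12 TPM (1.69-fold, under the limit in FPKM). Lif, a cytokine gene, was 1.96-fold lower in TPM, but its CPM ratio of 0.709 is a smaller difference that does not pass the limit, in CPM or with TMM factors. The classical collagenase and stromelysin targets were barely detected: Mmp13 had 1 and 3 counts, Mmp3 had 4 and 9.57, and Mmp10 had 0 and 2.42.

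Of 16 tested partners and targets of the Egr factors, 3 were lower (18.75%) and 2 higher (12.5%), beside 4.83% and 3.72% of all genes. The median was -0.14, or -0.29 over the 12 genes that reach a floor of 5 TPM. The corepressor genes Nab1 (36.7 and 28.3 TPM, 1.30-fold lower) and Nab2 (36.3 and 27.9 TPM, 1.30-fold lower), whose proteins bind Egr1 and Egr2, differed by less than the limit. The growth factor gene Fgf2 (1.97-fold) and F3, the tissue factor gene (1.65-fold), were among the lower genes. The peripheral myelin genes that Egr2 controls in Schwann cells were on both sides of 0: Pmp22 measured 377.9 and 300.8 TPM and Prx 2.37 and 2.38 TPM, while Gjb1 (1.94 and 3.72 TPM, from 27.3 and 56.3 counts) and Mag (9.07 and 70.2 TPM, 7.74-fold) were higher. Gjb1 and Mag are also expressed by oligodendrocytes, and in FPKM 1 gene of the list was higher. The fourth Egr gene, Egr4, had 2 counts in vector and 3 in Slit1, at or under the floor of 3 counts, so no fold is given.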

How the data were processed

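The study measured RNA of 2 cultures by sequencing, 1 per group, and groups follow the treatment label. Per the file headers, the authors deposited FPKM, TPM and read counts per gene; the deposited TPM sum to 1000000 per library, and the deposited counts are estimated counts that need not be whole. Per the submitters' processing notes the genome build was mRatBN7.2; the aligner, the counter, the annotation and the use of strand are not given in these sources. The number of value columns of other samples was 0. Promoter windows are RefSeq's on GRCr8, matched by gene number.

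The difference of log2(TPM + 1) was taken over genes averaging 1 TPM or more. TPM ratios carry exact (Clopper-Pearson) 95% intervals from the rounded counts, levels exact Poisson intervals, and shares intervals by error propagation from the counts, all for counting error only; PCR copies are not independent molecules. Scripts used Python 3.11.15, scipy 1.17.1 and edgeR 4.0.16 (TMM factors only) and were tested on simulated data. The text names all members and, from each list, up to 6 genes past the limit or otherwise the 2 that differed most; some genes that this rule takes in are not reported here, and others are marked or are described as part of a gene's mechanism. Members and lists were chosen with earlier results of these data known, so no count over them is independent evidence. Alternatives were 2 pseudocounts, 2 floors, 4 scalings, a 2-fold limit and intervals wholly beyond 1.5-fold.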

Additional observations from a re-analysis of the deposited data

How the results depend on the processing

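Each count was recomputed under 10 alternatives. The number of members at least 1.5-fold lower was 2 under 9 of them and 1 at a limit of 2-fold, and the number higher was 0 under all 10. The count of intervals wholly beyond 1.5-fold was taken in TPM, where Egr1 passed narrowly, and in CPM its interval crossed the limit. The median of the members stayed below 0 under all 8 alternatives that give one. With the limit at 2-fold, 0 of the 155 tested genes of the pathway lists were lower, beside 0.645% of all genes, and 2 were higher. The share of all genes at least 2-fold higher was not computed, and counts this small carry no further reading. By CPM, which is not per length, Fos genes made up 15.6% of the members' sum in vector and 14.01% in Slit1, Jun genes 71.9% and 76.3%, and Egr genes 12.5% and 9.66%. With a pseudocount of 5 the difference of Egr2 was -0.76. By CPM the median of the SRF list was -0.15, and -0.14 with TMM factors. At a floor of 5 TPM the median of the Egr partners and targets was -0.29, over fewer genes. No paired analysis was possible because each group has 1 library, so no replicate could be left out either.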
